A study of Mus musculus with 12 samples.

Results

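The 9 genes described here code for transcription factors of kidney epithelial cells: Pax2, Pax8, Gata2, Gata3, Tfap2b, Grhl2, Elf3, Elf5 and Emx2. They were taken by gene name from a table of 52015 mouse genes, and all 9 names were found. Their RNA was measured by RNA-seq in mpkCCD cells, a mouse cell line of the cortical collecting duct, the last stretch of the kidney tubule. Control and Nfat5 knockout cells were grown at 2 osmolalities for 5 days, which gave 4 groups. Scr_300 and Scr_600 carried a scrambled guide RNA with no target, at 300 and 600 mosmol/kg, with 2 libraries each. Nfat5-KO_300 and Nfat5-KO_600 were made with CRISPR/Cas9 and lack NFAT5, the transcription factor that cells use to answer hypertonic medium, with 4 libraries each at the same osmolalities. The medium of 600 mosmol/kg had 100 mM NaCl and 100 mM urea added. Each knockout group joined 2 clones, N1 and N3, with 2 libraries a clone, and all cells shared the same parental line.

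In the kidney, Pax2 and Pax8 are paired box factors of the nephric lineage. Both act early in the Wolffian duct and ureteric bud, from which the collecting duct grows, and both stay on in mature tubules. Gata3 acts in the same duct lineage downstream of the PAX factors, and Gata2 is active in collecting duct cells, where it takes part in the control of the water channel gene Aqp2. Emx2 is a homeobox factor of the ureteric bud. Grhl2 and Elf3 are epithelial factors that act on genes of cell junctions and barrier function. Elf5 marks principal cells of the collecting duct, and Tfap2b acts in the distal nephron and collecting duct. NFAT5 binds a DNA element called TonE that contains the core GGAAA.

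The values were FPKM, fragments per kilobase of gene length, scaled for the number of mapped reads, with 1 value per gene and group in the deposited table. These are the authors' group values, so there is no spread between libraries or clones, no error can be given, and no difference below was tested. The 2 clones of a knockout group cannot be told apart in a group value, nor can the loss of NFAT5 be told apart from a trait of these clones. Steps in the low values implied library depths of which the 2 most common were about 35900000 and 32000000 reads in Scr_300, 37100000 and 35100000 in Scr_600, 30800000 and 29300000 in Nfat5-KO_300 and 34700000 and 33200000 in Nfat5-KO_600. The columns summed to between 212247 FPKM in Nfat5-KO_600 and 253756 FPKM in Scr_300. Nfat5 itself, the edited gene, was at 5.61 FPKM in Scr_300, 7.93 in Scr_600, 3.47 in Nfat5-KO_300 and 6.88 in Nfat5-KO_600, and the total of a gene does not show whether its reading frame is intact. Of 8 principal cell markers, 2 reached 0.5 FPKM in a group, Aqp3 and Hsd11b2. Aqp2 was at 0 FPKM in Scr_300, 0.245 in Scr_600, 0.0171 in Nfat5-KO_300 and 0.219 in Nfat5-KO_600. Avpr2, the vasopressin receptor, was at most 0.0193 FPKM, so these 2 principal cell markers were near 0. Of 25 markers of 8 other cell types, 23 stayed under 0.5 FPKM in every group.

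Levels of the 9 genes can be set side by side within a group because FPKM is per length. In Scr_300 the order from high to low was Elf3 (46.1 FPKM), Pax8 (19.5), Emx2 (12.1), Grhl2 (9.11), Pax2 (6.59), Gata3 (3.41) and Gata2 (3.31). The last 2 were 1.03-fold apart, with no spread to judge that by. Elf5 was at 0.00237 FPKM and Tfap2b was listed at 0. Elf3 lay above 92.0% of the genes that reached 0.5 FPKM there, and Gata2 above 31.8%.

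The order differed in each of the other groups. In Scr_600, Pax2 moved from the 5th to the 2nd place, next to Elf3, which was 1.08-fold higher. In Nfat5-KO_300, Pax2 was the lowest of the 7 genes above 0.5 FPKM and Gata3 came 3rd, 1.01-fold above Emx2. In Nfat5-KO_600, Gata3 was the highest of all and Elf3 came 2nd, while Grhl2 was the lowest of the 7. Elf3 and Pax8 were then 1.02-fold apart. Among the genes above 0.5 FPKM, Pax2 passed 50.2% in Scr_300, 91.9% in Scr_600, 23.9% in Nfat5-KO_300 and 56.3% in Nfat5-KO_600. Gata3 passed 32.5%, 39.5%, 66.2% and 88.4% in the same order of groups.

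**Figure D1:**
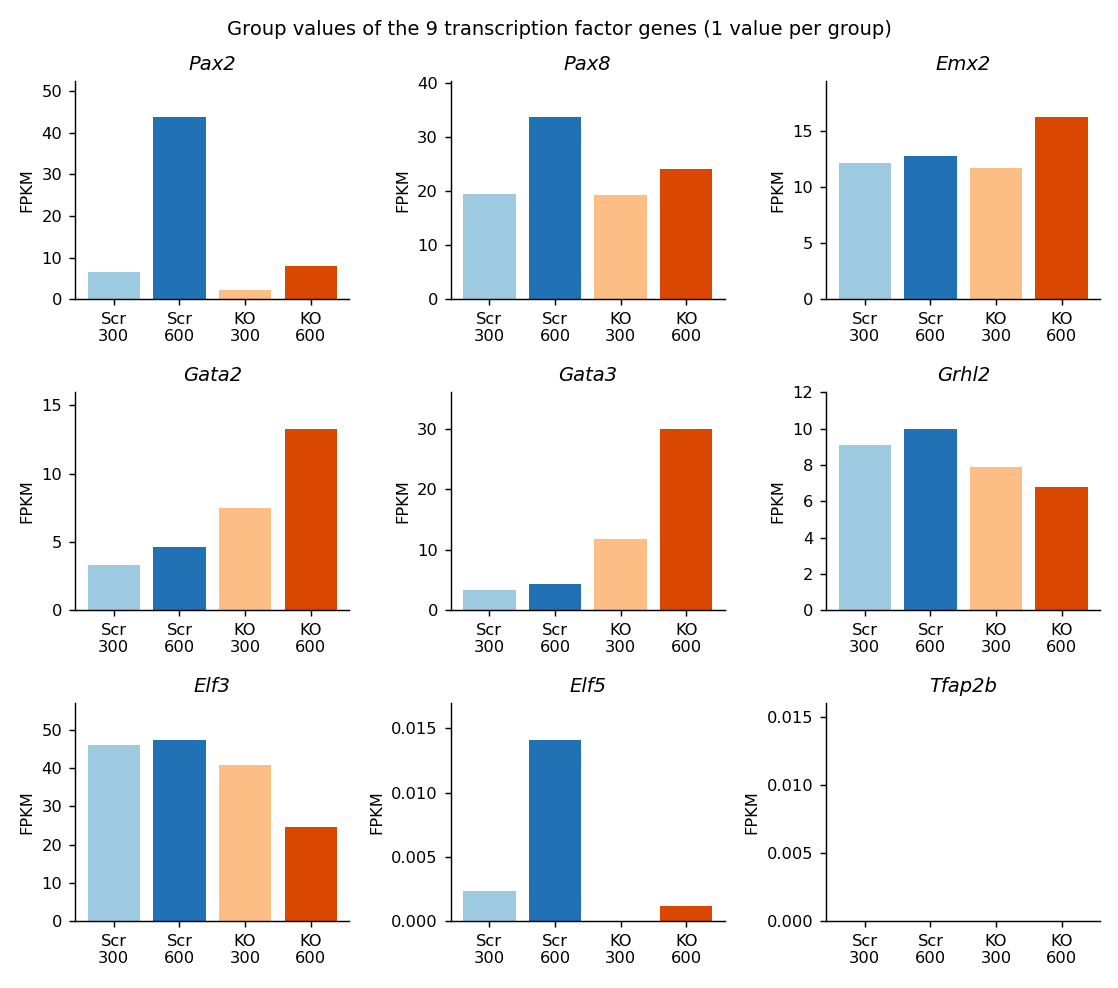
Bars give the group value in FPKM (vertical axis, from 0, with its own scale in each panel) of each of the 9 genes in Scr_300, Scr_600, Nfat5-KO_300 and Nfat5-KO_600, 1 value per group and therefore no error bar. Pax2 stands out in Scr_600 at 43.7 FPKM, Gata3 in Nfat5-KO_600 at 30.0 FPKM, and Tfap2b has no bar because it was listed at 0.

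Ratios between groups are given as log2 of (FPKM + 0.1) of one group over the other, which understates the change of low genes. The background of a comparison is every gene with at least 0.5 FPKM in 1 of its 2 groups, and a gene was counted as higher or lower when the ratio was at least 2-fold. Elf5 and Tfap2b did not pass that filter, and 7 of the 9 genes did. Fewer cells that express a gene and less RNA per cell cannot be told apart in such bulk values.

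In Nfat5-KO_300 against Scr_300, Gata2 and Gata3 were at least 2-fold higher, that is 2 of the 7, where 1.73% of 12704 genes were. Pax2 was at least 2-fold lower, 1 of the 7, where 2.44% of all genes were. In Nfat5-KO_600 against Scr_600 the same 3 genes lay past 2-fold in the same directions, 2 higher where 3.76% of 13063 genes were and 1 lower where 3.68% were. In Scr_600 against Scr_300, Pax2 was at least 2-fold higher, 1 of the 7, where 4.81% of 12929 genes were, and 0 of the 7 were at least 2-fold lower, where 2.86% were. In Nfat5-KO_600 against Nfat5-KO_300, Pax2 and Gata3 were at least 2-fold higher, 2 of the 7, where 6.25% of 12982 genes were, and 0 of the 7 were at least 2-fold lower, where 4.11% were. The 4 comparisons use each group 2 times, so they are not independent of each other. The genes were chosen with earlier results of these data known, so these shares are a description only.

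The middle of the 7 log2 ratios stayed closer to that of all genes than these single genes did. The median of the 7 was -0.05 in Nfat5-KO_300 against Scr_300, where all genes had -0.00. It was -0.48 in Nfat5-KO_600 against Scr_600 (all genes -0.02), 0.33 in Scr_600 against Scr_300 (all genes -0.04) and 0.46 in Nfat5-KO_600 against Nfat5-KO_300 (all genes -0.04). When each column was rescaled to the same sum, the share of higher genes among all those past 2-fold went from 50.5% to 61.2% in Nfat5-KO_600 against Scr_600 and from 60.3% to 80.8% in Nfat5-KO_600 against Nfat5-KO_300.

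**Figure D2:**
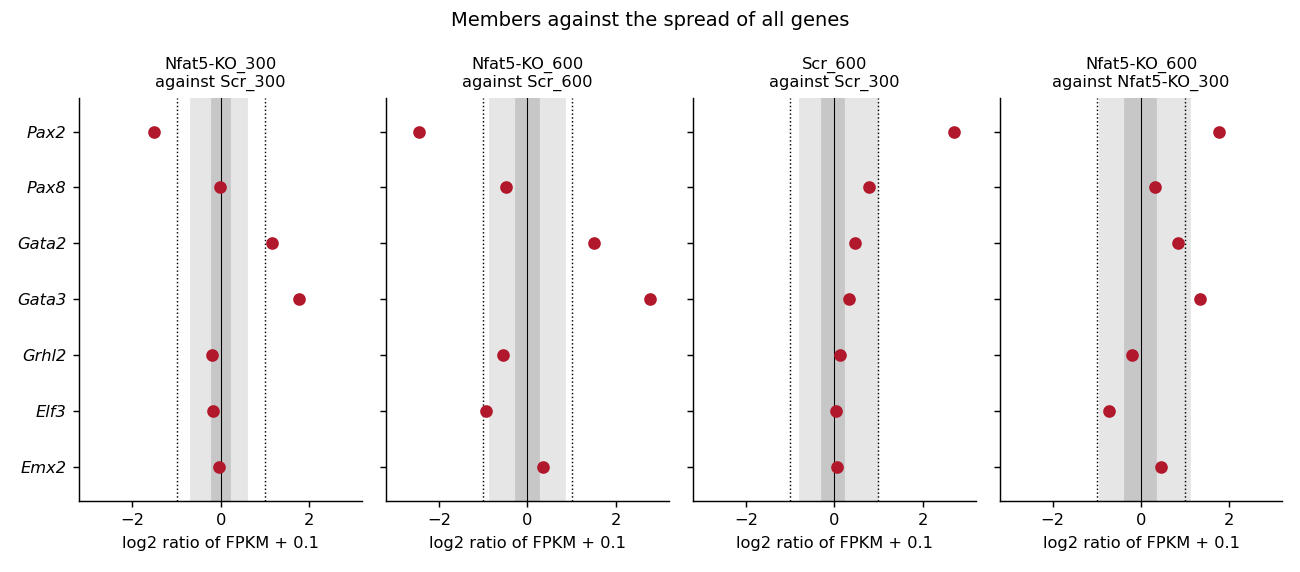
Each panel is 1 comparison, with the log2 ratio of FPKM + 0.1 on the horizontal axis and the 7 genes that passed the filter on the vertical axis (red points). Dark and light grey bands hold the middle 50% and 90% of all genes in the comparison and dotted lines mark 2-fold. Pax2 lies left of the bands in both knockout comparisons (-1.52 and -2.46) and right of them in both osmolality comparisons (2.71 and 1.77), while Gata3 lies right of them in 3 of the 4.

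Pax2, on chromosome 19 at 44756045-44837871 on the plus strand (GRCm38), had the widest range of the 9 genes. It was at 6.59 FPKM in Scr_300, 43.7 in Scr_600, 2.23 in Nfat5-KO_300 and 7.85 in Nfat5-KO_600. These values stand for about 2420, 17080, 1450 and 5770 reads in the group. Scr_600 was far above the other groups, and the knockout cells at 600 mosmol/kg were near the Scr cells at 300 mosmol/kg. At 600 against 300 mosmol/kg, Pax2 was 6.54-fold higher in Scr cells (log2 2.71), with 80 of 12929 genes above it, and 3.42-fold higher in knockout cells (log2 1.77), with 199 of 12982 genes above it. In knockout against Scr cells it was 2.88-fold lower at 300 mosmol/kg (log2 -1.52) and 5.51-fold lower at 600 mosmol/kg (log2 -2.46). In the latter comparison 76 of 13063 genes had a lower ratio. The log2 effect of osmolality was 0.94 smaller in the knockout than in Scr cells (difference -0.94), and 3.62% of 13414 genes had a lower difference. Across all genes the middle 90% of this difference ran from -0.78 to 0.88.

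Pax8, on chromosome 2 at 24420560-24475599 on the minus strand, moved much less. Its levels were 19.5 FPKM in Scr_300, 33.7 in Scr_600, 19.3 in Nfat5-KO_300 and 24.1 in Nfat5-KO_600. At 300 mosmol/kg the genotypes were alike in value (log2 -0.01, which was 0.00 with columns rescaled to the same sum), and at 600 mosmol/kg the knockout was 1.40-fold lower (log2 -0.48). The higher osmolality went with a 1.73-fold higher level in Scr cells (log2 0.79) and a 1.25-fold higher level in knockout cells (log2 0.32). In Scr cells 6.87% of all genes had a larger ratio, so Pax8 lay inside the middle 90%.

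Because Pax2 moved more than Pax8, their proportion changed between groups. Pax2 was at 0.339 times the level of Pax8 in Scr_300, 1.29 times in Scr_600, 0.115 times in Nfat5-KO_300 and 0.326 times in Nfat5-KO_600. The 2 genes together came to 26.1, 77.4, 21.5 and 32.0 FPKM in these groups, and Pax2 made up 25.3%, 56.4%, 10.4% and 24.6% of that. Scr_600 was the only group in which Pax2 exceeded Pax8. Of the other 7 PAX genes only Pax9, a paired box factor known from pharyngeal pouches and teeth, reached 0.5 FPKM, at 1.87, 1.94, 1.31 and 0.776 FPKM. Pax9 was lower in knockout cells at 600 mosmol/kg (log2 -1.22), as was Pax2, but nearly level between osmolalities in Scr cells (log2 0.05).

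The windows around RefSeq start sites (GRCm38.p6, 250 bases before to 50 after each start) were searched on both strands. The searches were for GGAAA, for the full TonE consensus and for GATAA, a form of the core that GATA factors bind. Every TonE holds a GGAAA. Windows were found for 8 of the 9 genes, 12 in all, and Grhl2 had no entry. GGAAA was in 7 of the 12, against 61.3% of all 32851 windows, and GATAA in 2 of the 12, against 25.4%. TonE was in 0 of the 12 and in 4.96% of all windows, which says only that these letters were not in these windows. The window of Pax2 with the most cores is shown because this gene had the largest ratios between osmolalities. It lies at chr19:44755502-44755801 on the plus strand, upstream of the gene start in GENCODE, and capitals mark its 2 matches to GGAAA.
Pax2: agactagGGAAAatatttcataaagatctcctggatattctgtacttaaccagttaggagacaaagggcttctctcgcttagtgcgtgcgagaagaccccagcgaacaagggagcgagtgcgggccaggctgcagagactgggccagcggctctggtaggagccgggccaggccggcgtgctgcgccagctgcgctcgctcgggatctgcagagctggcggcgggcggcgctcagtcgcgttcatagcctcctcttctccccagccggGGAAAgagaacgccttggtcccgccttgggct

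Gata3, on chromosome 2 at 9857078-9890034 on the minus strand, was higher in both knockout groups than in either Scr group. It was at 3.41 FPKM in Scr_300, 4.33 in Scr_600, 11.8 in Nfat5-KO_300 and 30.0 in Nfat5-KO_600, or about 920, 1240, 5660 and 16230 reads. The Scr values lay close together, and the knockout values were spread by osmolality. In knockout against Scr cells Gata3 was 3.40-fold higher at 300 mosmol/kg (log2 1.77), with 55 of 12704 genes above it. At 600 mosmol/kg it was 6.81-fold higher (log2 2.77), with 23 of 13063 genes above it. The higher osmolality went with a 1.26-fold higher value in Scr cells (log2 0.33) and a 2.53-fold higher value in knockout cells (log2 1.34). This difference between genotypes was 1.00 on the log2 scale, and 3.85% of genes had a larger one.

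Gata2, on chromosome 6 at 88193891-88207032 on the plus strand, ran in the same order of groups. Its log2 ratios were smaller than those of Gata3, except between the osmolalities in Scr cells (0.46 against 0.33). It was at 3.31, 4.61, 7.46 and 13.3 FPKM in Scr_300, Scr_600, Nfat5-KO_300 and Nfat5-KO_600, or about 1210, 1800, 4850 and 9780 reads. Knockout cells were 2.21-fold higher at 300 mosmol/kg (log2 1.15) and 2.86-fold higher at 600 mosmol/kg (log2 1.51). The ratio of osmolalities was 0.46 on the log2 scale in Scr and 0.83 in knockout cells, and the difference of 0.37 was exceeded by 17.9% of genes. With a pseudocount of 1 FPKM the ratio at 300 mosmol/kg was 0.97, just under 2-fold.

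Gata3 and Gata2 were at nearly the same level in Scr cells and apart in knockout cells. Gata3 was at 1.03 times the level of Gata2 in Scr_300, 0.939 times in Scr_600, 1.59 times in Nfat5-KO_300 and 2.25 times in Nfat5-KO_600. Their sum was 6.72, 8.93, 19.3 and 43.4 FPKM. The other 4 GATA genes were at most 0.0171 FPKM in any group, so Gata2 and Gata3 were the GATA genes with measurable RNA in these cells. Gata3 against Pax2 went from 0.517 and 0.099 in Scr_300 and Scr_600 to 5.31 and 3.82 in Nfat5-KO_300 and Nfat5-KO_600.

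The summed markers of 7 of the 8 other cell types also were highest in Nfat5-KO_600, and those of endothelium in Scr_600 (0.192 FPKM). Over all 52015 genes with no filter, Nfat5-KO_600 had 1086 at least 2-fold higher and 798 lower against Scr_600. Against Nfat5-KO_300 it had 1422 higher and 789 lower. With the filter of 0.5 FPKM the counts against Scr_600 were nearly even, 491 higher (3.76%) and 481 lower (3.68%) of 13063 genes. Against Nfat5-KO_300 they were then 812 higher (6.25%) and 534 lower (4.11%) of 12982. The 6 intercalated cell markers summed to 0.206 FPKM in Scr_300, 1.18 in Scr_600, 0.162 in Nfat5-KO_300 and 4.07 in Nfat5-KO_600, where Aqp6 made up 3.53 FPKM and Foxi1 and Atp6v0d2 were listed at 0 in all groups. The 5 proximal tubule markers summed to 0.0237, 0.0221, 0.179 and 1.1 FPKM, of which Lrp2, the endocytosis receptor megalin, made up 1.07 in Nfat5-KO_600. The other lists of other cell types summed to at most 0.302 FPKM in any group. The 8 principal cell markers summed to 3.71, 3.26, 5.35 and 9.83 FPKM. Of these, Hsd11b2 made up 0.383, 0.655, 1.95 and 6.18 FPKM and Aqp3 2.91, 2.07, 2.93 and 2.82 FPKM, and the other 6 were each at most 0.455 FPKM. Their part in the values of Gata2 and Gata3 was not tested.

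The start windows of the 2 GATA genes are shown because both genes were higher in knockout cells. That of Gata3 lies at chr2:9878551-9878850 and is printed along the minus strand, with its 2 matches to GGAAA (here as TTTCC, the other strand) in capitals. The first of 2 windows of Gata2, at chr6:88193641-88193940 on the plus strand, holds 0 matches to GGAAA, and so does the second. GC content was 67.3% and 69.3%.
Gata3: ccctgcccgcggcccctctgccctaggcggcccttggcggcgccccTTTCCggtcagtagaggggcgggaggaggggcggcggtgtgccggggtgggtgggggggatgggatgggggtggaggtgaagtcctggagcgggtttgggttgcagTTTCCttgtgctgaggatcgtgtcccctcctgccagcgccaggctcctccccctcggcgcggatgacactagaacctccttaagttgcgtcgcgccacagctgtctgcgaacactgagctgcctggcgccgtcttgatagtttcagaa
Gata2: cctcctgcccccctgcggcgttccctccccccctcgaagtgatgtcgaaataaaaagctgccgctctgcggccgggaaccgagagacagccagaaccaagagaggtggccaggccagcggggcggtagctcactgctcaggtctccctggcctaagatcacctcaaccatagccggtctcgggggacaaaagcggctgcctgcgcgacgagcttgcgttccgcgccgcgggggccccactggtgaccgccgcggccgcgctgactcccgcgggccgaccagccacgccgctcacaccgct

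**Figure D3:**
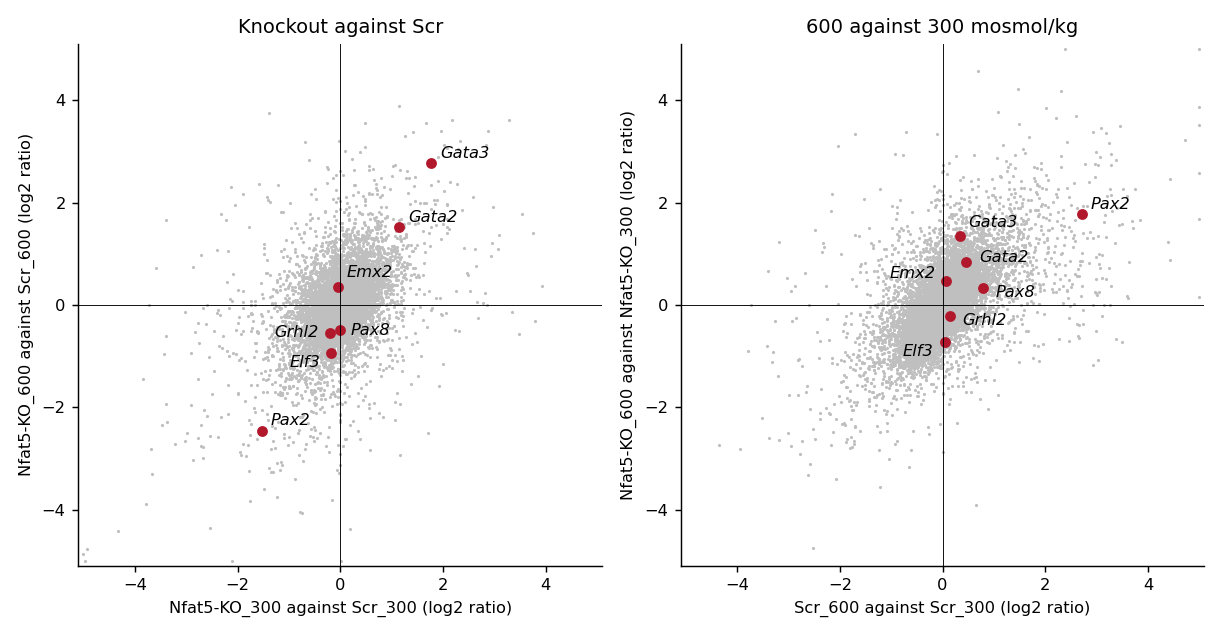
Grey points are single genes that reached 0.5 FPKM and red points the 7 named genes, with log2 ratios of FPKM + 0.1 on both axes and values beyond 5 drawn at the edge. The left panel sets the knockout effect at 300 mosmol/kg (horizontal) against that at 600 mosmol/kg (vertical), with Gata3 (1.77 and 2.77) and Gata2 (1.15 and 1.51) at the upper right and Pax2 (-1.52 and -2.46) at the lower left. The right panel sets the osmolality effect in Scr (horizontal) against that in knockout cells (vertical), with Pax2 (2.71 and 1.77) far to the right.

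Elf3 and Grhl2, the epithelial factors, were highest in Scr_600 and lowest in Nfat5-KO_600. Elf3, on chromosome 1 at 135253575-135258568 on the minus strand, was at 46.1 FPKM in Scr_300, 47.4 in Scr_600, 40.9 in Nfat5-KO_300 and 24.7 in Nfat5-KO_600. The first 3 values lay close together and Nfat5-KO_600 was apart. Against Scr_600 it was 1.91-fold lower (log2 -0.94), and 4.2% of genes had a lower ratio. Against Nfat5-KO_300 it was 1.65-fold lower (log2 -0.73), whereas Scr cells showed 0.04 between the osmolalities. This left a difference of -0.76 between the genotypes, with 5.19% of genes lower. Elf3 did not reach 2-fold in any comparison.

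Grhl2, on chromosome 15 at 37233036-37363569 on the plus strand, was at 9.11 FPKM in Scr_300, 10.0 in Scr_600, 7.9 in Nfat5-KO_300 and 6.8 in Nfat5-KO_600. Knockout against Scr gave log2 -0.20 at 300 and -0.55 at 600 mosmol/kg. Between the osmolalities the log2 ratio was 0.14 in Scr and -0.21 in knockout cells, and the latter turned to 0.03 with columns rescaled to the same sum. Elf3 was at 5.06, 4.72, 5.18 and 3.63 times the level of Grhl2 in the 4 groups in the order above. Grhl1, a paralog of Grhl2 known from epidermis, stayed between 2.53 and 3.15 FPKM.

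Ehf, the close relative of Elf3 among the epithelial ETS factors, was at 24.7, 36.1, 15.9 and 15.8 FPKM. Ehf was lower in knockout cells at both osmolalities (log2 -0.64 and -1.19), and past 2-fold at 600 mosmol/kg. Elf3 was higher than Ehf in each group, by 1.86, 1.31, 2.58 and 1.56 times, and the 2 genes together came to 70.8, 83.5, 56.8 and 40.5 FPKM. Elf1, Elf2 and Elf4, ETS factors better known from blood cells, were between 4.96 and 17.2 FPKM, and none of the 3 reached 2-fold in a comparison.

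Elf5 was at 0.00237 FPKM in Scr_300, 0.0141 in Scr_600, 0 in Nfat5-KO_300 and 0.00123 in Nfat5-KO_600. These stand for about 1, 6, 0 and 1 reads, and no ratio was taken. The gene, on chromosome 2 at 103411688-103450989 on the plus strand, is a marker of principal cells in the kidney. Tfap2b, on chromosome 1 at 19208914-19238576 on the plus strand, was listed at 0 in all 4 groups. Its paralog Tfap2a was measured at 8.82, 11.9, 8.47 and 9.86 FPKM, and was the AP-2 gene with measurable RNA. Tfap2a was within 0.42 of 0 in each log2 ratio (-0.06, -0.27, 0.42 and 0.22 in the order of comparisons above).

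Emx2, on chromosome 19 at 59458372-59465357 on the plus strand, had the narrowest range of the 7 measured genes. It was at 12.1 FPKM in Scr_300, 12.8 in Scr_600, 11.7 in Nfat5-KO_300 and 16.2 in Nfat5-KO_600. The first 3 values were near each other and Nfat5-KO_600 was the highest. The log2 ratios were -0.05 and 0.34 for knockout against Scr cells at 300 and 600 mosmol/kg, and 0.07 and 0.46 for the higher osmolality in Scr and in knockout cells. Its paralog Emx1 was at most 0.0138 FPKM.

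Over the 6 families of these factors the table held 31 genes, the 9 named and 22 paralogs. Of the paralogs 7 reached 0.5 FPKM in a group (Pax9, Tfap2a, Grhl1, Elf1, Elf2, Elf4 and Ehf), and the lowest value of any of these was 0.776 FPKM. The other 15 were at most 0.0184 FPKM. The 2 sets were thus far apart in level, as were the 7 measured genes from Elf5 and Tfap2b.

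**Figure D4:**
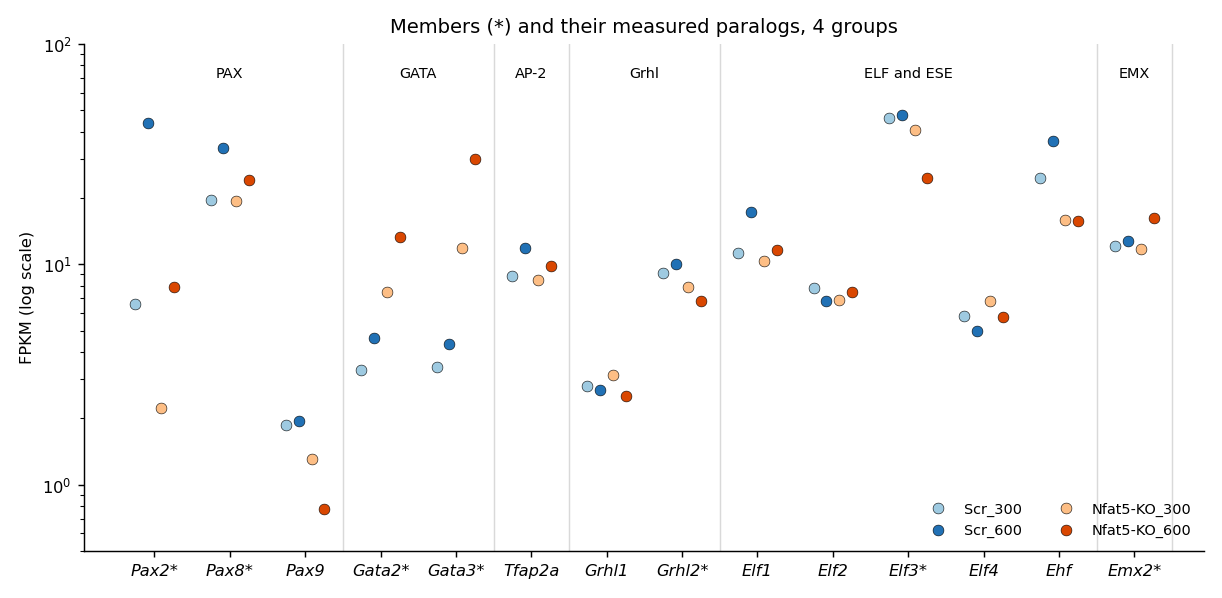
Points give the group value in FPKM on a log scale (vertical) of the 7 measured genes (starred) and their 7 measured paralogs (horizontal, by family), in 4 colours for the 4 groups. Pax2 spans 2.23 to 43.7 FPKM and Gata3 3.41 to 30.0 FPKM, a wider spread than that of the paralogs shown.

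Several of these genes share ground with other genes, and the sources do not state whether reads were counted by strand. Gm16136 lies opposite Grhl2 with 169 shared exon bases and was at 10.9, 11.5, 6.7 and 4.48 FPKM, so reads of the 2 genes may not be separable. Gm13256 lies opposite Gata3 with 155 shared exon bases (0, 0.0547, 0.303 and 0.622 FPKM). 9230102O04Rik lies on the strand of Gata3 with 77 shared exon bases (0.601, 0.253, 0.927 and 2.21 FPKM). Both were highest where Gata3 was highest, at levels far below it. Emx2os lies opposite Emx2 with 264 shared exon bases and was at 0.758, 0.816, 0.482 and 1.32 FPKM. The partners that share exon bases with Pax8 and Elf3, Gm13415 and Gm26642, were at most 0.12 and 0.162 FPKM. 1700039E22Rik lies opposite Pax2 with 0 shared exon bases and was at 0.108, 1.7, 0.02 and 0.136 FPKM, highest in Scr_600 as Pax2 was. 4930412O13Rik lies opposite Gata3, also with 0 shared exon bases, and was at 0.439, 0.506, 0.696 and 2.61 FPKM, highest in Nfat5-KO_600 as Gata3 was.

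Other factors of the ureteric bud and collecting duct were taken from a list of 9, of which 7 passed the filter. None was 2-fold apart in Nfat5-KO_300 against Scr_300 or in Scr_600 against Scr_300. Tfcp2l1, a factor that maintains collecting duct cells, was at 40.6, 25.1, 48.9 and 53.4 FPKM and was the 1 gene at least 2-fold higher in Nfat5-KO_600 against Scr_600 (log2 1.08). Etv4, an ETS factor downstream of the receptor Ret in the ureteric bud, was at 14.9, 14.0, 21.8 and 10.6 FPKM and was the 1 gene at least 2-fold lower in Nfat5-KO_600 against Nfat5-KO_300 (log2 -1.03). Lhx1 was at most 0.0109 FPKM and Sall1 was listed at 0.

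Factors of other kidney lineages were mostly near 0, with 2 of 10 past the filter. Osr1, an early factor of the intermediate mesoderm, was at 4.5, 3.37, 2.33 and 1.05 FPKM and was lower in the knockout (log2 -0.92 and -1.59 at 300 and 600 mosmol/kg). Osr1 and Pax2 thus both were lower in knockout cells, but Osr1 was also lower at 600 than at 300 mosmol/kg (log2 -0.41 in Scr and -1.08 in knockout cells). Eya1, a coactivator of the metanephric mesenchyme, was at 6.21, 9.22, 4.3 and 6.44 FPKM (log2 -0.52 and -0.51 for the knockout at 300 and 600 mosmol/kg). Six2, Foxd1 and Foxi1 were listed at 0 in all groups, and Hnf4a was at most 0.0136 FPKM.

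Of 11 genes known as targets of these factors, 7 passed the filter. Cdh16, the kidney cadherin gene bound by PAX8, was at 33.5, 186, 29.7 and 129 FPKM. It was higher at 600 mosmol/kg in both genotypes (log2 2.47 in Scr and 2.12 in knockout cells) and differed between genotypes by -0.17 and -0.53. Cldn4, a claudin of tight junctions and a target of GRHL2, was at 66.0, 148, 63.8 and 42.5 FPKM, with log2 -1.80 for the knockout at 600 mosmol/kg and 1.17 for the higher osmolality in Scr cells. These were the 2 genes of the list past 2-fold in any comparison. Cdh1 (E-cadherin) stayed between 72.7 and 103 FPKM, Epcam between 211 and 304 FPKM and Esrp1, a splicing factor of epithelia, between 18.1 and 23.4 FPKM. Ovol2, an epithelial zinc finger factor and a target of GRHL2, was at 1.8, 1.61, 1.85 and 3.23 FPKM, with log2 0.96 for the knockout at 600 mosmol/kg, opposite in sign to Cldn4, and 0.77 for the higher osmolality in knockout cells. Rab25, a small GTPase of epithelial vesicle transport, was at 69.5, 46.7, 87.1 and 49.1 FPKM, with log2 -0.57 and -0.83 for the higher osmolality in Scr and in knockout cells. The median of the 7 was -0.05, -0.12, -0.13 and -0.14 in the 4 comparisons. Ret, a target of GATA3 and PAX2 in the ureteric bud, was at most 0.0117 FPKM, which leaves it near 0 in every group.

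Genes with the most similar pattern over the 4 groups were found by the distance between their centred log2 values (the square root of the summed squared gaps), over 11920 genes that reached 1 FPKM in a group. With 4 values a gene this is a description only, and it says nothing of shared function. Pax2 and Gata3 had few neighbours, with 2 and 4 genes within 0.5. Those nearest to Pax2 were Gm38079 (0.43) and Mir6993 (0.48), both low, and then Chdh (0.55), a mitochondrial enzyme that oxidises choline on the way to betaine. Chdh was at 2.38, 19.3, 0.622 and 4.0 FPKM. Nearest to Gata3 were Hsd11b2 (0.42), the enzyme that shields the mineralocorticoid receptor from glucocorticoids, Rasl11a (0.43) and Mir7655 (0.44). Hsd11b2 was at 0.383, 0.655, 1.95 and 6.18 FPKM and Rasl11a at 8.63, 8.95, 21.2 and 50.7 FPKM.

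Gata2 had 22 genes within 0.5, with Frem2 (0.02), Gm44250 (0.06) and Plac8 (0.13) nearest. Frem2, an extracellular matrix protein of embryonic epithelia, was at 0.479, 0.702, 1.2 and 2.19 FPKM. Gata2 itself lay 1.01 from Gata3, and 36 genes lay closer to Gata3 than that. Pax8, Elf3 and Grhl2, which moved less, had 1381, 1277 and 4212 genes within 0.5. Elf3 and Grhl2 lay 0.41 apart and Pax2 and Pax8 2.44 apart. The pair farthest apart among the named genes was Pax2 and Gata3, at 4.59.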

How the data were processed

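RNA from 12 libraries of mpkCCD cells (2 Scr_300, 2 Scr_600, 4 Nfat5-KO_300, 4 Nfat5-KO_600) was poly(A) selected and sequenced by the authors, who cleaned the reads, mapped them to GRCm38/mm10 with HISAT2, counted them with HTSeq and divided by gene length and depth. The deposited values are FPKM with 1 value per gene for each group. Tool versions, the annotation release, the use of strand and how libraries were combined are not given in the sources used here. Of 54839 rows, 2436 held no value, 311 were exact duplicates and 37 symbols had conflicting rows, which left 52015 genes. Columns matched to no group numbered 0.

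Log2 ratios of FPKM + 0.1 were taken over genes with at least 0.5 FPKM in 1 of the 2 groups, and a gene under 0.1 FPKM in either group was given no ratio of its own. No test was run, since 1 value per group has no spread. All 9 genes were named, with their families, lists of collecting duct factors, factors of other lineages, target genes and cell type markers. The 3 genes nearest in pattern were found for each gene whose values ranged over at least 0.5 on the log2 scale. They are named above for Pax2, Gata2 and Gata3 only. One listed collecting duct factor, and the median of its list, are not reported here. Members and lists were chosen with earlier results of these data known. Read depth was implied from the steps of low values with GENCODE M21 exon lengths (bins of 250000 reads, 51582 genes), assuming that a group value is the mean of its libraries, so reads are approximate. Positions are from GENCODE M21 and start windows from RefSeq. Alternatives were pseudocounts of 1 and 0.01 FPKM, 2 rescalings, no filter, and a mean of at least 1 FPKM. Scripts (Python 3.11.15 with pandas 2.3.3, numpy 2.4.6 and matplotlib 3.10.9) were tested on simulated data beforehand.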

Additional observations from a re-analysis of the deposited data

How the results depend on the processing

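Of 140 values of the 7 measured genes under 4 alternatives of pseudocount and scaling, 137 stayed on their side of 2-fold, 2 of them with a turned sign. Gata2 in Nfat5-KO_300 against Scr_300 went to 0.97 (log2) with a pseudocount of 1, while the Pax2 difference of the osmolality effect went to -1.10 with that pseudocount and Gata2 in Nfat5-KO_600 against Nfat5-KO_300 to 1.08 with columns rescaled to the same sum. That scaling moved the median of all genes from -0.00, -0.02, -0.04 and -0.04 to 0.01, 0.11, 0.09 and 0.20 in Nfat5-KO_300 against Scr_300, Nfat5-KO_600 against Scr_600, Scr_600 against Scr_300 and Nfat5-KO_600 against Nfat5-KO_300, and turned 2 small values, Pax8 in the first (0.00) and Grhl2 in the last (0.03).

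Counts of all genes past 2-fold in those 4 comparisons were 220, 491, 622 and 812 higher and 310, 481, 370 and 534 lower. With a pseudocount of 1 they were 48, 135, 251 and 259 higher and 87, 203, 124 and 230 lower, since that pseudocount shrinks ratios of low genes. With columns rescaled to the same sum, Nfat5-KO_600 against Nfat5-KO_300 had 1374 higher and 326 lower. With no filter, 581, 1086, 1098 and 1422 were higher, and 647, 798 and 737 lower in the first 3. With a mean of at least 1 FPKM, 106, 259, 352 and 467 were higher, and 153, 289 and 201 lower in the first 3, over fewer genes.

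No paired analysis was possible because the table holds 1 value per group and no replicate numbers. Leaving out a library or a clone could not be run for the same reason. Values near 0, as for Elf5, rest on 6 reads or fewer and allow no ratio.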
